A study of Homo sapiens with 12 samples.

Results

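The genes described here are 48 genes of G2 and mitosis, chosen by name from a list of cyclins, mitotic kinases, spindle, kinetochore, checkpoint, anaphase and cytokinesis genes, out of the 19293 genes in the count table. They were chosen with earlier results of these data known. Each of the 48 had 1 row in the table, and all 48 passed the filter on low counts. RNA sequencing measured them in cells of the human fibrosarcoma line HT1080, in 4 groups of 3 libraries harvested after 24 h. The groups were cells given 20 Gy of radiation together with IFNγ at 10 ng/ml (combination), cells given 20 Gy alone (irradiated), cells given IFNγ at 10 ng/ml alone (IFNγ-treated), and cells given neither (untreated). All were cultures of the same line at passages 15 to 20, with no genetic alteration named, and the labels do not say whether the 3 libraries of a group came from separate cultures. The p-values therefore cover only variation among these libraries, part or all of which may be technical.

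Cells enter mitosis when CDK1 bound to a B-type cyclin is switched on by CDC25 phosphatases. The condensed chromosomes then attach to the spindle through kinetochores, the spindle checkpoint holds the anaphase-promoting complex (APC/C) in check until all are attached, and separase then frees the sister chromatids. Most of these genes are transcribed periodically, late in the cell cycle. The DREAM complex represses them in resting or p53-arrested cells through a promoter element called the cell cycle genes homology region (CHR), and B-MYB and FOXM1 activate them in G2. Ionizing radiation activates the G2 checkpoint and p53, and IFNγ is a cytokine known mainly for inducing antigen presentation genes. In bulk RNA, a change in the share of cells in G2 or mitosis and a change in the RNA per cell cannot be told apart.

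Library totals ran from 10254314 to 10956421 counts in the combination, 9675126 to 10084853 in irradiated, 10263803 to 11010656 in IFNγ-treated and 9762772 to 10550510 in untreated cells. The lowest count of any of the 48 genes in any library was 133 (CDC25C, a phosphatase that activates CDK1), so no value of these 48 rests on a handful of reads. All 7 mesenchymal markers were tested, with VIM at 4172 CPM or more in every library, while EPCAM, CDH1, PTPRC and CD3E had between 1 and 49 counts over all 12 libraries. Of the other epithelial markers, KRT5 and KRT14 had 2 counts each and CLDN4 had 301, at 4.25 CPM or less. Against untreated cells CLDN4 was called higher after radiation alone (0.785 on the log2 scale) and in the combination (0.714). The DESeq2 test kept the call after radiation alone but not the one in the combination. Of the 4 endothelial markers, KDR had 114 counts and the others 44 or fewer. CD68, a lysosomal protein used as an immune marker, was at 184 to 195 CPM in combination, 164 to 167 in irradiated, 136 to 138 in IFNγ-treated and 115 to 124 CPM in untreated libraries, while the other 4 immune markers stayed at 2.31 CPM or less, and their part in the results was not tested. CDKN1A, the p53 target p21, averaged 588 ± 8.28 CPM in combination, 612 ± 8.77 in irradiated, 90.3 ± 3.18 in IFNγ-treated and 112 ± 8.12 in untreated libraries (SD, n = 3 each). CPM is counts per 1e6 of the library total after TMM scaling. Of the 48 genes, 13 share exon bases with another protein-coding gene in the GENCODE 29 annotation (CCNA2, CDC25C, CDCA3, PLK1, BORA, BUB1B, CENPA, KIF20A, KIF4A, NUSAP1, PRC1, ANLN and FOXM1). With annotated genes of every type counted, 18 of the 48 share exon bases, which adds HMMR, MAD2L1, NUF2, KIF2C and KIF23. The strand setting of the counting is not given in the sources used here, so part of their counts may belong to the neighbour.

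Promoter windows of 300 bases, from 250 before to 50 after the annotated start, were available for 42 of the 48 genes in the RefSeq table (GRCh38.p14). FOXM1, TPX2, TTK, AURKA, UBE2C and BIRC5 had no entry. The 4 windows below belong to the genes that rose most (HMMR, CDK1) and fell most (MKI67, ESPL1) after radiation alone. All 4 held the CHR letters and a CCAAT box, and only MKI67 held an E2F site. Picked by their response, they do not stand for the other genes that rose or fell. Capitals mark every match, on either strand, to the CHR letters TTTGAA, the CCAAT box (CCAAT, or ATTGG on the other strand) and 2 spellings of an E2F site, GCGGGAA and GGCGGGA. The E2F spellings share letters and can overlap each other, and a CHR ending in AA can run into an ATTGG. HMMR lies at chr5:163460382-163460681 on the plus strand, CDK1 at chr10:60778081-60778380 (plus), MKI67 at chr10:128126374-128126673 (minus) and ESPL1 at chr12:53268049-53268348 (plus), and each is written 5′ to 3′ on its gene's strand.
HMMR: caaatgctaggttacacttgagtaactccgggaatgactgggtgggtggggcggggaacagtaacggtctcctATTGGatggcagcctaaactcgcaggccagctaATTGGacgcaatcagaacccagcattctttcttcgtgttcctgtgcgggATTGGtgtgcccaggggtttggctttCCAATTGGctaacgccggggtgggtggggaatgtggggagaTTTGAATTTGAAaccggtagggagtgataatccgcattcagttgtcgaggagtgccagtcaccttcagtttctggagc
CDK1: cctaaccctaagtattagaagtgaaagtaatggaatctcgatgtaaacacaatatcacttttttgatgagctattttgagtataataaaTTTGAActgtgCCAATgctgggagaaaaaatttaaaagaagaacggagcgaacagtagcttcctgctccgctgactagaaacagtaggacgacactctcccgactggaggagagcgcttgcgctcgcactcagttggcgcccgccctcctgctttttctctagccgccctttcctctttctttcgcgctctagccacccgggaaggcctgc
MKI67: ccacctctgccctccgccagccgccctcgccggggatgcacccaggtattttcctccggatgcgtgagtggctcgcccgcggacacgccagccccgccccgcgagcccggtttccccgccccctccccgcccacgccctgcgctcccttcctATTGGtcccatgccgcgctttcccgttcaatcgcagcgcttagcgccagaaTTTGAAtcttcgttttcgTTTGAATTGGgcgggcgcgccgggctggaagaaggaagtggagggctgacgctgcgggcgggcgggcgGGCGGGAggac
ESPL1: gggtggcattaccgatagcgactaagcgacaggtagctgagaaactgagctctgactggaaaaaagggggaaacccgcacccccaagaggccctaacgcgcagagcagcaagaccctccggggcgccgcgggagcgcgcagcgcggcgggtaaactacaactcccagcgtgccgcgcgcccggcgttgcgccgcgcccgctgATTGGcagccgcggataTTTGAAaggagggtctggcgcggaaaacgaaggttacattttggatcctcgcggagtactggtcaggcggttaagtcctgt
In HMMR, which encodes a microtubule-bound spindle protein, a pair of CHR copies began 28 and 22 bases before the start. MKI67 (the Ki-67 antigen) had copies at 47 and 29 bases before it, ESPL1 (separase) 1 at 31 bases, and CDK1 1 at 161 bases with a CCAAT box at 150. The CHR letters stood in 30 of the 42 windows (71.4%), against 9.6% of the 9598 tested genes with a window. The CCAAT box stood in 33 (78.6%, against 36.8%), both together in 26 (61.9%, against 4.03%), and an E2F site in 14 (33.3%, against 29.6%). Split by the response to radiation alone, 6 of 12 windows of genes that rose, 13 of 17 of genes that fell and 11 of 13 of genes that were not called held the CHR letters. For the CCAAT box these were 8, 14 and 11 windows. A match describes letters in the window and is not evidence of binding.

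In untreated cells the level per kb of exon ran from 4.65 CPM per kb for CDC25C, 5.57 for BORA (which helps Aurora A activate PLK1) and 6.37 for ESPL1 up to 107.0 for cyclin B1 (CCNB1) and 122.0 for both CDC20, the APC/C activator, and TPX2, a spindle assembly factor. The summed level of the 48 genes was 9435 to 9692 CPM in combination, 8663 to 8821 in irradiated, 9138 to 9274 in IFNγ-treated and 8952 to 9025 in untreated libraries. On this TMM scale the 4 ranges did not overlap. As a share of each library's raw total the 48 genes took 0.938% to 0.964% in combination, 0.888% to 0.90% in irradiated, 0.886% to 0.901% in IFNγ-treated and 0.904% to 0.911% in untreated libraries, so the combination was highest on both scales, whereas irradiated and IFNγ-treated libraries overlapped and the IFNγ-treated ones fell below the untreated ones on the raw scale. No gene of the 48 changed as much as 2-fold in any pairwise comparison, and the largest log2 fold change was 0.71.

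**Figure D1:**
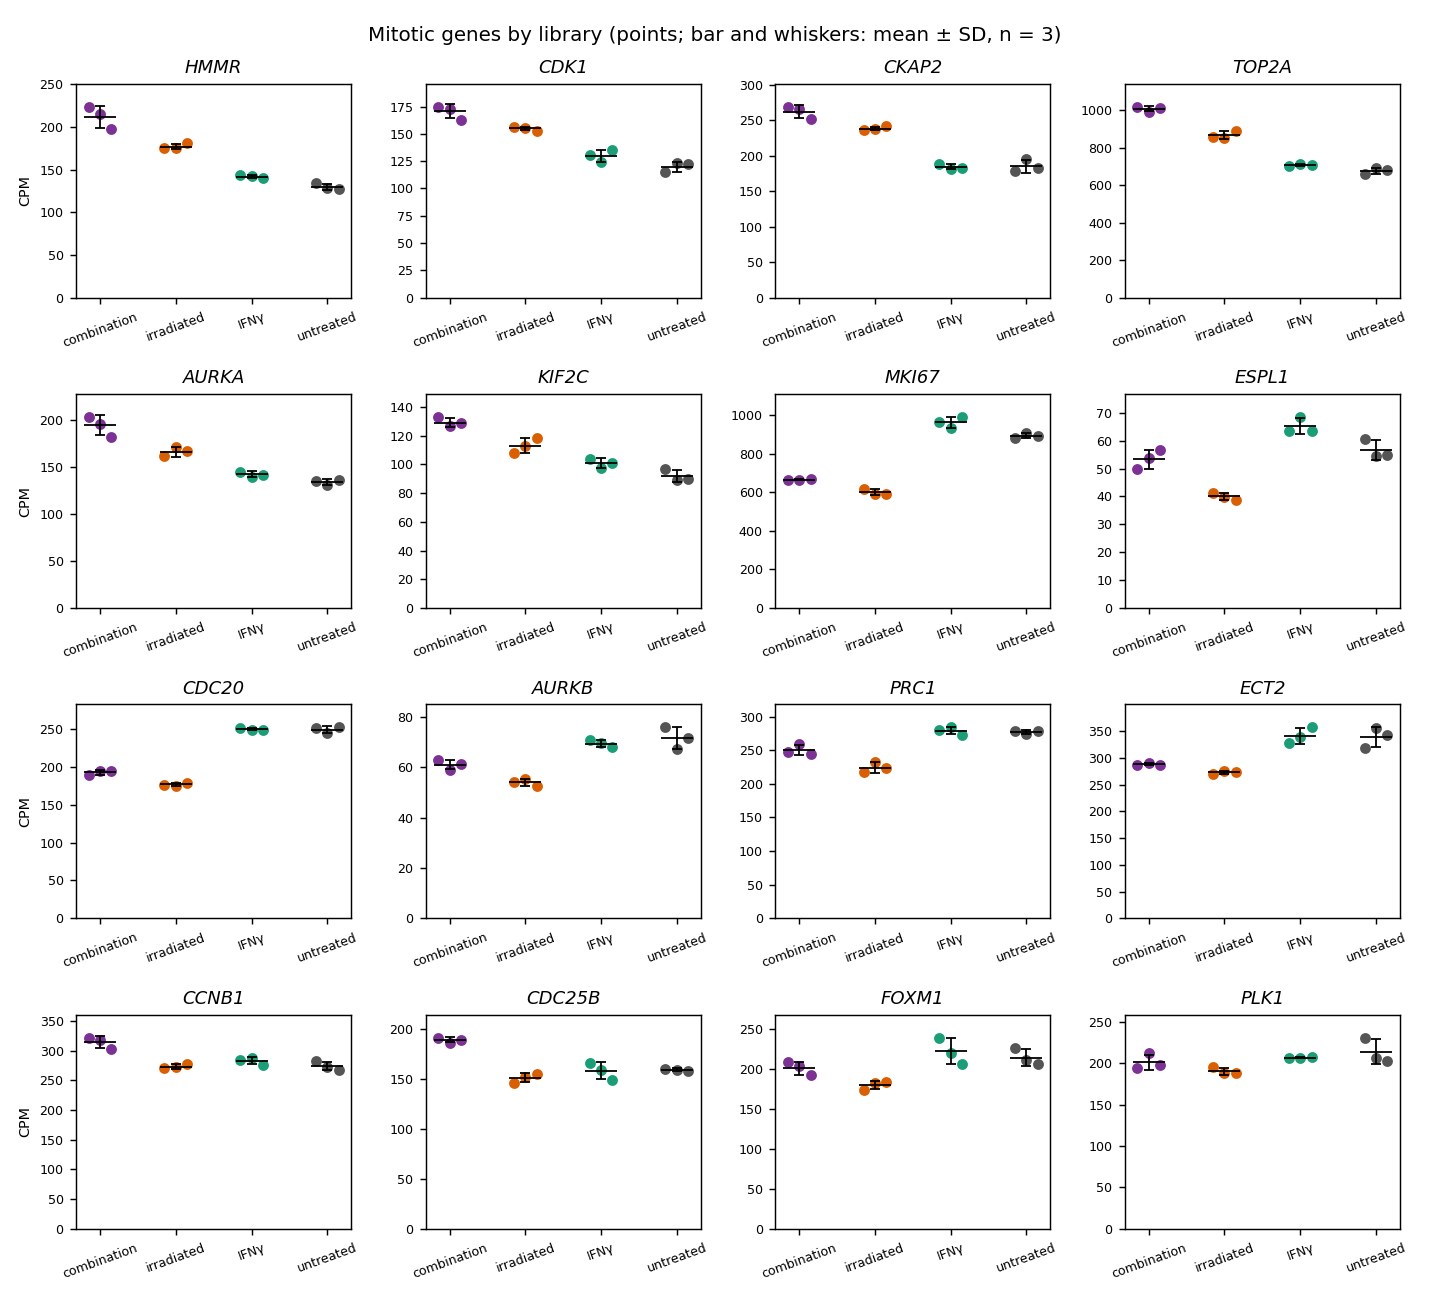
CPM (linear axis from 0) of 16 of the 48 genes in each library, with the mean and SD of 3 libraries per group. HMMR, CDK1, CKAP2, TOP2A, AURKA and KIF2C are higher in both irradiated groups than in untreated cells, MKI67, CDC20, AURKB, PRC1 and ECT2 are lower in both, and CDC25B is raised in the combination, at 186 to 191 CPM.

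After radiation alone, compared with untreated cells, a larger share of the 48 than of all tested genes was called lower. The share called higher was near that of all tested genes. In this and the later comparisons all tested genes were not matched to the 48 by level, which affects how small a change is called. Of the 48, 14 were called higher and 19 lower at an adjusted p under 0.05 (edgeR quasi-likelihood test), against 27.9% of all tested genes higher and 28.2% lower, which is 29.2% and 39.6% of the 48. The libraries of the 2 groups did not overlap for 14 of the 48 in the higher and 21 in the lower direction, against 30.4% of all tested genes in each. Their median log2 fold change was -0.05, against 0.00607 over all tested genes. The 14 that rose included CDK1, AURKA, HMMR and TOP2A, and the 19 that fell included all 4 anaphase genes, 3 of 4 checkpoint genes and MKI67.

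Among the 7 genes of mitotic entry, 2 rose, 1 fell and 4 were not called. CDK1, the kinase that starts mitosis, was at 156, 155 and 153 CPM in irradiated libraries, against 115, 123 and 122 CPM in untreated libraries. All irradiated libraries lay above all untreated ones, with a log2 fold change of 0.37 ± 0.0414 (SE, n = 3 each; adjusted p = 3.94e-11). CCNB1, its main cyclin partner in mitosis, was at 270.5, 272 and 278 CPM in irradiated and 282, 272 and 267 CPM in untreated libraries. These overlapped, and the difference of -0.0021 ± 0.0338 was not called (adjusted p = 0.964). CCNA2, the cyclin of S and G2 phase, fell by 0.24 on the log2 scale, and CDC25C rose by 0.23. The B-type cyclin CCNB2 (0.01), the phosphatase CDC25B (-0.07) and CDCA3, an adaptor for degradation of the CDK1 inhibitor WEE1 (-0.05), were not called.

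Of the 4 mitotic kinases and their activators, 3 rose and 1 fell. AURKA, the centrosomal Aurora kinase, was at 161, 171 and 167 CPM in irradiated and 135, 130.4 and 136 CPM in untreated libraries. The groups did not overlap (log2 0.31 ± 0.0408, adjusted p = 2.13e-09). NEK2, which separates the centrosomes before mitosis, was at 61.8, 57.5 and 57.5 CPM in irradiated and 47.6, 49.0 and 48.2 CPM in untreated libraries, again without overlap (0.29 ± 0.0561). BORA rose by 0.23. PLK1, the polo kinase needed from mitotic entry to cytokinesis, was at 195, 188 and 188 CPM in irradiated and 231, 207 and 203 CPM in untreated libraries. All irradiated libraries were lower, with a log2 fold change of -0.17 ± 0.0397 (adjusted p = 0.000283), so the 3 kinase genes and the activator did not move as 1 group.

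All 4 anaphase genes fell. ESPL1, the protease that cleaves cohesin at anaphase, was at 41.3, 39.9 and 38.7 CPM in irradiated and 60.7, 54.6 and 54.7 CPM in untreated libraries. CDC20 was at 176, 175 and 179 CPM in irradiated and 251, 244 and 252 CPM in untreated libraries. In both genes every irradiated library lay well below every untreated one, at -0.51 ± 0.0612 for ESPL1 (adjusted p = 3.24e-10) and -0.49 ± 0.0346 for CDC20 (adjusted p = 1.74e-18). UBE2C, the ubiquitin-conjugating enzyme of the APC/C (-0.16), and PTTG1, the separase inhibitor securin (-0.11), fell less. In the spindle checkpoint, 3 of 4 genes fell, namely BUB1B (BUBR1, -0.26), MAD2L1 (MAD2, -0.22) and BUB1 (-0.13), and the checkpoint kinase TTK (MPS1) rose by 0.15, although its libraries overlapped.

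Chromosome passenger and cytokinesis genes fell or were not called. In the chromosomal passenger complex, which corrects faulty attachments and later acts in cytokinesis, the kinase AURKB was at 54.2, 55.3 and 52.6 CPM in irradiated and 75.8, 67.1 and 71.5 CPM in untreated libraries. It fell without overlap (-0.40 ± 0.0537, adjusted p = 4.31e-09), as did its scaffold INCENP (-0.17), while survivin (BIRC5, -0.07) and borealin (CDCA8, -0.01) were not called. Of the 4 cytokinesis genes, PRC1, which bundles the central spindle, was at 217, 233 and 223 CPM in irradiated and 279, 274 and 279 CPM in untreated libraries. ECT2, which activates RhoA at the division plane, was at 270.4, 275 and 273 CPM in irradiated and 318, 355 and 343 CPM in untreated libraries. Both were lower in every irradiated library, PRC1 by -0.31 ± 0.0347 and ECT2 by -0.31 ± 0.0354, while the contractile ring scaffold ANLN (-0.05) and the abscission factor CEP55 (-0.05) were not called.

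Spindle and kinesin genes went both ways. HMMR was at 175, 175 and 181 CPM in irradiated and 134, 128 and 127 CPM in untreated libraries. CKAP2, a microtubule stabilizer of the spindle, was at 236, 238 and 241 CPM in irradiated and 178, 195 and 182 CPM in untreated libraries. The irradiated libraries were higher without overlap in both genes, with a log2 fold change of 0.45 ± 0.0408 for HMMR (adjusted p = 3.24e-14) and 0.36 ± 0.0369 for CKAP2 (adjusted p = 1.37e-12). ASPM, a spindle pole protein, rose by 0.12 and DLGAP5 (HURP), which stabilizes kinetochore fibres, fell by 0.16, while NUSAP1 (0.09), TPX2 (-0.0015) and the microtubule-bound p53 regulator GTSE1 (-0.01) were not called. Of the 6 kinesins, KIF20A, which carries the passenger complex to the central spindle, was at 147, 153 and 154 CPM in irradiated and 126, 121 and 124 CPM in untreated libraries. KIF2C (MCAK), which depolymerizes microtubules at centromeres, was at 108, 113 and 118 CPM in irradiated and 96.9, 89.4 and 90.1 CPM in untreated libraries. These 2 kinesins rose without overlap, each by 0.29, whereas KIF11 (Eg5), which pushes the spindle poles apart, fell by 0.21, and KIF14 (0.02), KIF4A (-0.03) and KIF23 (-0.05), which act at the central spindle and midbody, were not called.

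At the centromere and kinetochore, the motor CENPE (0.09) and its partner CENPF (0.17) rose, and NDC80 (-0.14) and NUF2 (-0.17), 2 subunits of the complex that grips microtubules, fell. The centromeric histone CENPA was not called (-0.12, adjusted p = 0.191). MKI67, whose product coats mitotic chromosomes, was at 619, 592 and 592 CPM in irradiated and 883, 908 and 894 CPM in untreated libraries. TOP2A, the topoisomerase that untangles sister chromatids, was at 858, 851 and 891 CPM in irradiated and 661, 692 and 681 CPM in untreated libraries. These 2 genes of chromosome structure moved in opposite directions, MKI67 by -0.57 ± 0.0287 (adjusted p = 1.01e-24) and TOP2A by 0.35 ± 0.0282 (adjusted p = 2.62e-16). FOXM1, the transcription factor that drives many of these genes, was at 174, 182 and 183 CPM in irradiated and 226, 211 and 206 CPM in untreated libraries. It was lower in all irradiated libraries (-0.25 ± 0.0433, adjusted p = 3.82e-06).

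Leaving out 1 library ended 6 of the 33 radiation calls, with log2 fold changes of 0.16 for BORA (without untreated replicate 1; 0.22 without irradiated replicate 1), 0.20 to 0.23 for CDC25C (without untreated 2 or 3, or irradiated 2 or 3) and 0.08 to 0.09 for CENPE (without untreated 3, or irradiated 1 or 3). The same happened for NDC80 at -0.10 and -0.12 (without untreated 3 or irradiated 3), PTTG1 at -0.09 to -0.11 (without untreated 1 or 2, or irradiated 1 or 3) and TTK at 0.09 to 0.15 (without untreated 1 or 3, or irradiated 1 or 3), whereas CENPA was called lower (-0.21, adjusted p = 0.0296) without untreated 2, and NUSAP1 higher (0.11, adjusted p = 0.0266) without untreated 3.

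**Figure D2:**
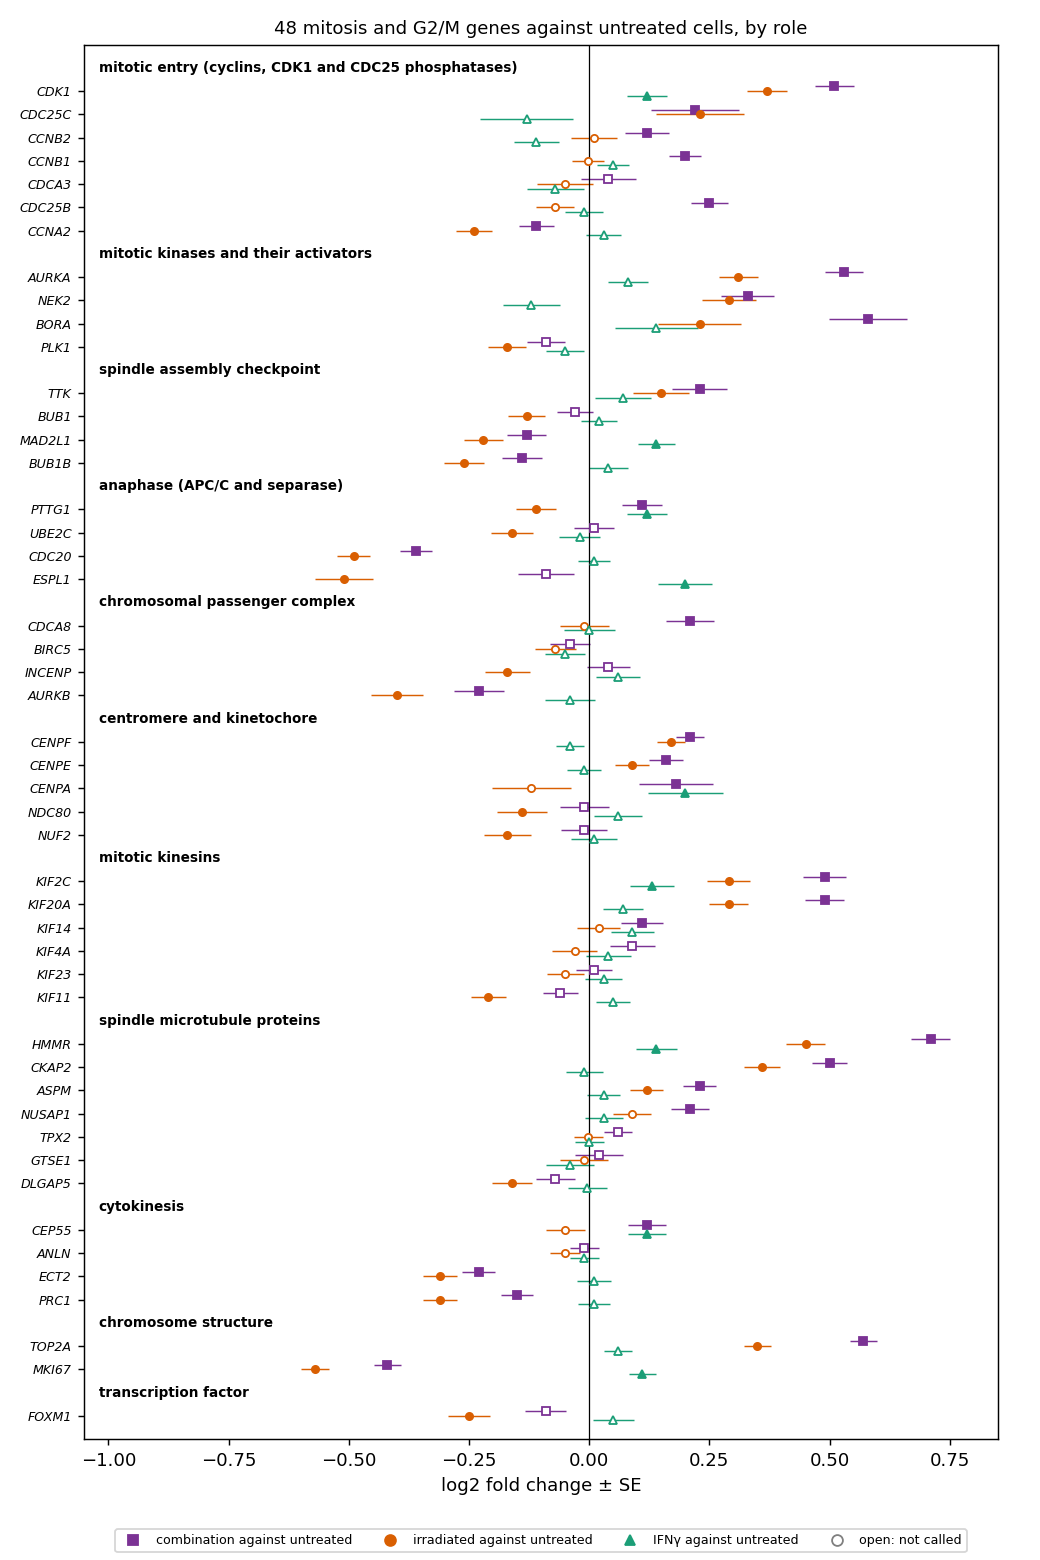
Log2 fold change against untreated cells with its SE for each of the 48 genes, by role, for the combination (squares), radiation alone (circles) and IFNγ alone (triangles), with filled symbols called at an adjusted p under 0.05 (n = 3 libraries per group). The symbols for radiation alone run from -0.57 (MKI67) to 0.45 (HMMR), those for IFNγ alone stay between -0.13 and 0.20, and those for the combination run from -0.42 (MKI67) to 0.71 (HMMR).

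The combination, compared with untreated cells, raised more of these genes than it lowered. Of the 48, 23 were called higher and 8 lower, 47.9% and 16.7%, against 30.9% and 31.2% of all tested genes, and the median log2 fold change was 0.073, against -0.00137 over all tested genes. Groups did not overlap for 24 genes in the higher direction (against 31.9% of all tested genes) and 10 in the lower (against 32.4%). Scaling by library totals in place of TMM gave 18 higher and 11 lower. The rise covered 5 of the 7 entry genes, 3 of the 4 kinases and activators, 3 of the 5 kinetochore genes, 3 of the 6 kinesins and 4 of the 7 spindle genes. It also covered 1 of 4 genes in each of the checkpoint, anaphase, passenger and cytokinesis roles, and 1 of 2 of chromosome structure. FOXM1 was not called.

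HMMR was at 224, 215 and 198 CPM in combination libraries, against 134, 128 and 127 CPM in untreated libraries, a log2 fold change of 0.71 ± 0.0399 (adjusted p = 8.58e-23). BORA was at 27.5, 25.7 and 26.5 CPM in the combination and 16.0, 19.7 and 17.6 CPM in untreated libraries (0.58 ± 0.0814). Neither overlapped, and BORA was the lowest expressed of the genes with a large rise. TOP2A was at 1021, 994 and 1013 CPM in the combination, against 661, 692 and 681 CPM in untreated cells (0.57 ± 0.028, adjusted p = 1.81e-25). AURKA was at 203, 195 and 182 CPM in the combination and 135, 130.4 and 136 CPM in untreated libraries (0.53 ± 0.0399). CDK1 was at 175, 173 and 163 CPM in the combination and 115, 123 and 122 CPM in untreated libraries (0.51 ± 0.0408). In all of these the 3 combination libraries were higher than every untreated library, and CKAP2, at 269, 266 and 252 CPM in the combination and 178, 195 and 182 CPM in untreated libraries, showed the same (0.50 ± 0.0364).

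CCNB1, which radiation alone left uncalled, was at 322, 318 and 303 CPM in the combination and 282, 272 and 267 CPM in untreated libraries. It was higher without overlap (0.20 ± 0.0333, adjusted p = 8.25e-07). Other genes called higher against untreated cells in the combination and not after radiation alone were CCNB2 (0.12), CDC25B (0.25), CDCA8 (0.21), CENPA (0.18, with overlap), KIF14 (0.11), NUSAP1 (0.21) and CEP55 (0.12). PTTG1 was called lower after radiation alone and higher, by 0.11, in the combination. The genes already raised by radiation alone, 14 in all, were also called higher in the combination, among them KIF20A (0.49), KIF2C (0.49), NEK2 (0.33), TTK (0.23), ASPM (0.23), CDC25C (0.22), CENPF (0.21) and CENPE (0.16). Both comparisons use the same untreated libraries, so part of this agreement is built in. The matching share over all tested genes was not computed.

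The 8 genes called lower were led by MKI67, at 664, 665 and 672 CPM in the combination and 883, 908 and 894 CPM in untreated libraries. CDC20 followed, at 189, 195 and 195 CPM in the combination and 251, 244 and 252 CPM in untreated libraries. Neither gene's groups overlapped, with log2 fold changes of -0.42 ± 0.0285 for MKI67 (adjusted p = 2.06e-19) and -0.36 ± 0.0341 for CDC20 (adjusted p = 6.37e-14). AURKB was at 62.7, 58.9 and 61.3 CPM in the combination and 75.8, 67.1 and 71.5 CPM in untreated libraries (-0.23 ± 0.0521). ECT2 was at 287, 289.8 and 287 CPM in the combination and 318, 355 and 343 CPM in untreated libraries (-0.23 ± 0.0351). PRC1 was at 247, 259 and 244 CPM in the combination and 279, 274 and 279 CPM in untreated libraries (-0.15 ± 0.0342). These 3 genes of late mitosis were lower in every combination library, as was BUB1B, at 144, 139 and 134 CPM in the combination and 147, 159.8 and 151 CPM in untreated libraries (-0.14 ± 0.041, adjusted p = 0.00319). MAD2L1 (-0.13) and CCNA2 (-0.11) completed the 8.

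Of the 19 genes lowered by radiation alone, 10 were not called against untreated cells in the combination. The 19 were picked by their fall against the same untreated libraries. The share of all radiation-lowered genes that lost their call was not computed. FOXM1 was at 208, 203 and 192 CPM in the combination and 226, 211 and 206 CPM in untreated libraries, with overlap (-0.09 ± 0.0425, adjusted p = 0.0625). PLK1 was at 194, 212 and 198 CPM in the combination and 231, 207 and 203 CPM in untreated libraries, also with overlap (-0.09 ± 0.0393, adjusted p = 0.0545). Neither passed the threshold in the fit used here, but FOXM1 was called lower with library totals, with no filter, with the replicate block (adjusted p = 0.0409) and without untreated replicate 3, combination 1, or IFNγ 1 or 3 (log2 -0.09 to -0.12). PLK1 was called lower with library totals and without untreated 2 or 3 or combination 2 (-0.11 to -0.12). The others were BUB1 (-0.03), UBE2C (0.01), ESPL1 (-0.09), INCENP (0.04), NDC80 (-0.01), NUF2 (-0.01), KIF11 (-0.06) and DLGAP5 (-0.07). Every combination library of KIF11 lay below every untreated one, and the edgeR test with library totals called it lower (-0.08, adjusted p = 0.0343). A further 7 genes were called in neither this comparison nor after radiation alone nor between the combination and IFNγ alone: CDCA3, BIRC5, KIF23, KIF4A, TPX2, GTSE1 and ANLN.

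Leaving out 1 library ended 8 of the 31 calls, with log2 fold changes of 0.09 to 0.11 for KIF14 (without untreated replicate 1, or combination 1 or 2), 0.10 to 0.19 for CENPA (without untreated 2, or combination 1 or 2), 0.18 to 0.21 for CDC25C (without untreated 2 or 3, or combination 1 or 3) and 0.09 to 0.10 for PTTG1 (without untreated 3 or combination 1). The other 4 were MAD2L1 (-0.10) and CCNA2 (-0.08) without combination 3, and CEP55 (0.09) and CCNB2 (0.10) without combination 2, while TPX2 was called higher (0.07, adjusted p = 0.0499) without combination 3.

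The effect of radiation in cells that also had IFNγ, the combination compared with IFNγ alone, uses libraries separate from those of radiation alone against untreated. Here 19 of the 48 were called higher and 11 lower, 39.6% and 22.9%, against 30.3% and 30.4% of all tested genes, with a median of 0.03, against 0.00054 over all tested genes. The groups were apart for 20 genes in the higher direction (31.9% of all tested genes) and 12 in the lower (32.2% of all tested genes). Of the 33 genes called after radiation alone, 25 were called in the same direction here, 14 higher and 11 lower, and 0 in the opposite direction. Neither this overlap nor the correlations that follow were computed over all tested genes. They are therefore not shown to be particular to the 48. Across the 48 genes the 2 sets of log2 fold changes had a Pearson correlation of 0.963 and a Spearman correlation of 0.954, given as a description since the genes are not independent and all libraries share the same cell line and depth range. The sign was the same for 37 genes.

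HMMR was at 224, 215 and 198 CPM in the combination and 144, 143 and 140.4 CPM in IFNγ-treated libraries (0.57 ± 0.0394, adjusted p = 6.24e-19). CKAP2 was at 269, 266 and 252 CPM in the combination and 188, 181 and 182 CPM in IFNγ-treated libraries (0.52 ± 0.0365). TOP2A was at 1021, 994 and 1013 CPM in the combination and 701, 716 and 711 CPM in IFNγ-treated libraries (0.51 ± 0.028). In these 3 genes of the spindle and chromosomes no library of 1 group reached the other group. AURKA was at 203, 195 and 182 CPM in the combination and 145, 139 and 141 CPM in IFNγ-treated libraries (0.45 ± 0.0397). NEK2 was at 61.6, 61.3 and 58.6 CPM in the combination and 41.6, 46.0 and 45.0 CPM in IFNγ-treated libraries (0.45 ± 0.0564). BORA was at 27.5, 25.7 and 26.5 CPM in the combination and 19.0, 19.9 and 19.7 CPM in IFNγ-treated libraries (0.44 ± 0.08). These kinase genes and the kinase activator were likewise separated between the groups. CDK1 was at 175, 173 and 163 CPM in the combination and 130.4, 124 and 135 CPM in IFNγ-treated libraries (0.39 ± 0.0404), and CCNB1 rose by 0.15 ± 0.0332, its combination libraries above the 285, 287 and 276 CPM of the IFNγ-treated ones.

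MKI67 was at 664, 665 and 672 CPM in the combination and 967, 933 and 992 CPM in IFNγ-treated libraries (-0.53 ± 0.0285, adjusted p = 1.77e-23). CDC20 was at 189, 195 and 195 CPM in the combination and 251, 249 and 249 CPM in IFNγ-treated libraries (-0.37 ± 0.0341). ESPL1 was at 49.7, 53.9 and 56.5 CPM in the combination and 63.6, 68.5 and 63.6 CPM in IFNγ-treated libraries (-0.29 ± 0.0563). In all 3 the combination was lower without overlap. MAD2L1 was at 141, 141 and 132 CPM in the combination and 167, 161 and 168 CPM in IFNγ-treated libraries (-0.26 ± 0.0397). ECT2 was at 287, 289.8 and 287 CPM in the combination and 327, 339.6 and 357 CPM in IFNγ-treated libraries (-0.24 ± 0.0351). AURKB was at 62.7, 58.9 and 61.3 CPM in the combination and 70.8, 69.4 and 67.8 CPM in IFNγ-treated libraries (-0.19 ± 0.0525). None of these 3 overlapped between the groups, and the other genes called lower were BUB1B (-0.17), PRC1 (-0.16), CCNA2 (-0.14), FOXM1 (-0.14, with overlap) and KIF11 (-0.11). By role, 2 of 4 checkpoint, 2 of 4 cytokinesis and 1 of 4 passenger genes were lower, while the passenger gene CDCA8 (0.21, adjusted p = 0.000253) and the checkpoint kinase TTK (0.16, with overlap) were higher. PLK1 was at 194, 212 and 198 CPM in the combination and 206, 206 and 208 CPM in IFNγ-treated libraries and was not called (-0.04 ± 0.0395, adjusted p = 0.443). The calls of FOXM1 (-0.07 without IFNγ replicate 1), KIF11 (-0.09 without IFNγ 1) and TTK (0.12 to 0.14 without IFNγ 2 or combination 1 or 2) ended when those libraries were left out.

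**Figure D3:**
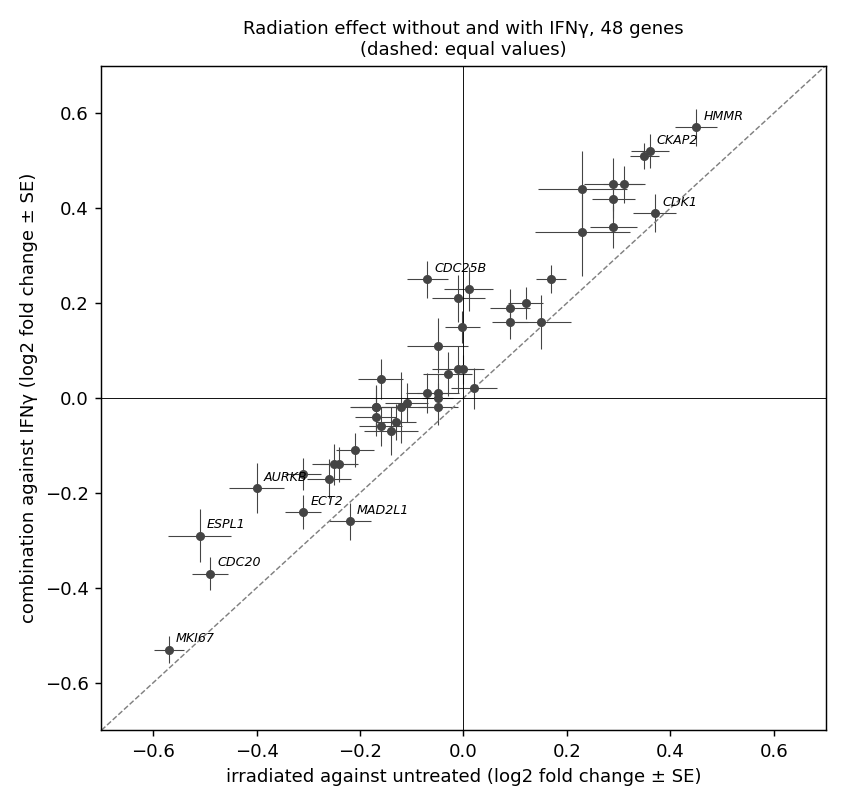
Each point is 1 of the 48 genes, with the log2 fold change of irradiated against untreated cells on the x axis and of the combination against IFNγ alone on the y axis, both with SE (n = 3 libraries per group), and the dashed line marks equal values. Points follow the line, from MKI67 (-0.57 and -0.53) to HMMR (0.45 and 0.57), and most lie above it.

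IFNγ alone, compared with untreated cells, changed few of these genes and by little. Of the 48, 9 were called higher (18.8%, against 15.0% of all tested genes) and 0 lower (against 14.1%). At an unadjusted p under 0.05 the lower count was 2, and the DESeq2 test called 4 higher and 0 lower. The median log2 fold change was 0.029, against -0.00521 over all tested genes, and the range was -0.13 to 0.20. The groups were apart for 11 genes in the higher direction (19.8% of all tested genes) and 3 in the lower (19.7% of all tested genes).

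ESPL1 was at 63.6, 68.5 and 63.6 CPM in IFNγ-treated and 60.7, 54.6 and 54.7 CPM in untreated libraries (0.20 ± 0.0559, adjusted p = 0.0036). MKI67 was at 967, 933 and 992 CPM in IFNγ-treated and 883, 908 and 894 CPM in untreated libraries (0.11 ± 0.0281, adjusted p = 0.00225). Both were thus higher in every IFNγ-treated library, whereas radiation alone lowered both. MAD2L1 was at 167, 161 and 168 CPM in IFNγ-treated and 145, 154 and 153 CPM in untreated libraries (0.14 ± 0.0393). HMMR was at 144, 143 and 140.4 CPM in IFNγ-treated and 134, 128 and 127 CPM in untreated libraries (0.14 ± 0.0417). KIF2C was at 104, 97.2 and 101 CPM in IFNγ-treated and 96.9, 89.4 and 90.1 CPM in untreated libraries (0.13 ± 0.046). These groups stood apart by a few CPM only. CDK1 was at 130.4, 124 and 135 CPM in IFNγ-treated and 115, 123 and 122 CPM in untreated libraries (0.12 ± 0.0422). PTTG1 was at 124, 122 and 124 CPM in IFNγ-treated and 115, 115 and 110.3 CPM in untreated libraries (0.12 ± 0.041). CEP55 was at 166, 157 and 167 CPM in IFNγ-treated and 148, 152 and 152 CPM in untreated libraries (0.12 ± 0.0399). No IFNγ-treated library of these 3 fell below an untreated one, while CENPA (0.20) was called with overlapping libraries.

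AURKA was at 145, 139 and 141 CPM in IFNγ-treated and 135, 130.4 and 136 CPM in untreated libraries and was not called (0.08 ± 0.0415, adjusted p = 0.128). CCNB1 was at 285, 287 and 276 CPM in IFNγ-treated and 282, 272 and 267 CPM in untreated libraries (0.05 ± 0.0337). CDC20 was at 251, 249 and 249 CPM in IFNγ-treated and 251, 244 and 252 CPM in untreated libraries (0.01 ± 0.0333). The last 2 overlapped and were not called. PLK1, at 206, 206 and 208 CPM in IFNγ-treated and 231, 207 and 203 CPM in untreated libraries (-0.05 ± 0.0393), and FOXM1, at 239, 220.2 and 206 CPM in IFNγ-treated and 226, 211 and 206 CPM in untreated libraries (0.05 ± 0.0423), were not called either. With library totals in place of TMM, 1 gene was called higher (ESPL1) and 5 lower (CENPF, NEK2, CCNB2, PLK1 and BIRC5), and leaving out IFNγ replicate 1, IFNγ replicate 3 or untreated replicate 3 left 3, 5 and 5 genes called higher, while TOP2A was called higher (0.08, adjusted p = 0.0394) without untreated replicate 2.

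In irradiated cells IFNγ was followed by higher levels of most of the 48. Comparing the combination with radiation alone, 30 genes were called higher (62.5%, against 14.5% of all tested genes) and 0 lower (against 12.4%). The lower count was also 0 at an unadjusted p under 0.05 and in the DESeq2 test, which called 26 higher. The log2 fold change was positive for 47 of the 48, against 47.8% of all tested genes, with a median of 0.136, against -0.00783 over all tested genes, and the combination libraries lay wholly above the irradiated ones for 39 genes (20.5% of all tested genes) and wholly below for 0 (19.8% of all tested genes). The genes are not independent and come from the same libraries, so these counts are a description. Library totals in place of TMM, which move the median of all tested genes to -0.0495, called 20 higher and 0 lower. The 10 calls that this scaling ended were those of CDK1, CDC20, CCNA2, BUB1, BUB1B, AURKB, NDC80, NUF2, ASPM and NUSAP1. Members of every role were among the 30.

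ESPL1 was at 49.7, 53.9 and 56.5 CPM in the combination and 41.3, 39.9 and 38.7 CPM in irradiated libraries (0.42 ± 0.0617, adjusted p = 1.62e-07). BORA was at 27.5, 25.7 and 26.5 CPM in the combination and 21.3, 20.5 and 20.9 CPM in irradiated libraries (0.35 ± 0.0792, adjusted p = 0.000484). CDC25B was at 191, 186 and 189 CPM in the combination and 146, 152 and 155 CPM in irradiated libraries (0.32 ± 0.0387, adjusted p = 8.73e-10). In all 3 the groups did not overlap. CENPA was at 32.3, 34.4 and 30.6 CPM in the combination and 25.7, 28.9 and 23.9 CPM in irradiated libraries (0.31 ± 0.0791). HMMR was at 224, 215 and 198 CPM in the combination and 175, 175 and 181 CPM in irradiated libraries (0.26 ± 0.0385). CDCA8 was at 83.3, 92.0 and 85.1 CPM in the combination and 71.0, 76.5 and 76.5 CPM in irradiated libraries (0.22 ± 0.0503). The combination was higher in every library of these as well. AURKA, at 203, 195 and 182 CPM in the combination and 161, 171 and 167 CPM in irradiated libraries, rose by 0.22 ± 0.0391, and TOP2A and PTTG1 rose by 0.22 each.

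All 4 anaphase genes rose, with CDC20 at 189, 195 and 195 CPM in the combination and 176, 175 and 179 CPM in irradiated libraries (0.13 ± 0.0353, adjusted p = 0.00382). CCNB1 was at 322, 318 and 303 CPM in the combination and 270.5, 272 and 278 CPM in irradiated libraries (0.20 ± 0.0334, adjusted p = 2.6e-06). CDK1 was at 175, 173 and 163 CPM in the combination and 156, 155 and 153 CPM in irradiated libraries (0.14 ± 0.0396). Both genes of the mitosis-starting kinase complex were higher without overlap. With library totals in place of TMM in the edgeR test, CDK1 (0.10, adjusted p = 0.0511) and CDC20 (0.09, adjusted p = 0.0536) were no longer called. MKI67 was at 664, 665 and 672 CPM in the combination and 619, 592 and 592 CPM in irradiated libraries (0.15 ± 0.029, adjusted p = 4.12e-05). FOXM1 was at 208, 203 and 192 CPM in the combination and 174, 182 and 183 CPM in irradiated libraries (0.16 ± 0.0435, adjusted p = 0.00373). MKI67 and FOXM1 were higher without overlap, and both combination means were below the untreated ones. PLK1 was at 194, 212 and 198 CPM in the combination and 195, 188 and 188 CPM in irradiated libraries, overlapped and was not called (0.08 ± 0.0399, adjusted p = 0.121).

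The other 16 genes called higher lay between 0.10 and 0.20 on the log2 scale: CCNA2, BUB1, BUB1B, UBE2C, AURKB, INCENP, NDC80, NUF2, KIF11, KIF20A, KIF2C, ASPM, CKAP2, NUSAP1, PRC1 and CEP55. The 18 that were not called were CCNB2, CDC25C, CDCA3, PLK1, NEK2, MAD2L1, TTK, BIRC5, CENPE, CENPF, KIF14, KIF23, KIF4A, TPX2, DLGAP5, GTSE1, ECT2 and ANLN, and of these CDC25C was the 1 gene below 0 (-0.02). Leaving out 1 library ended the calls of BUB1 (0.08 to 0.11, without any irradiated library or combination 1 or 2), BUB1B (0.10 to 0.12) and NDC80 (0.11 to 0.14; both without irradiated 2 or 3 or combination 1 or 2). It also ended those of NUF2 (0.13 and 0.14) and NUSAP1 (0.11 and 0.12; both without irradiated 2 or combination 1), ASPM (0.09, without irradiated 2 or combination 2) and AURKB (0.15 and 0.16, without irradiated 3 or combination 1), while CCNB2 (0.11 to 0.17, without untreated 1, IFNγ 1 or irradiated 3), KIF4A (0.12 and 0.14, without untreated 1 or combination 3), ECT2 (0.08, without untreated 1) and MAD2L1 (0.12, without combination 3) were then called higher.

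**Figure D4:**
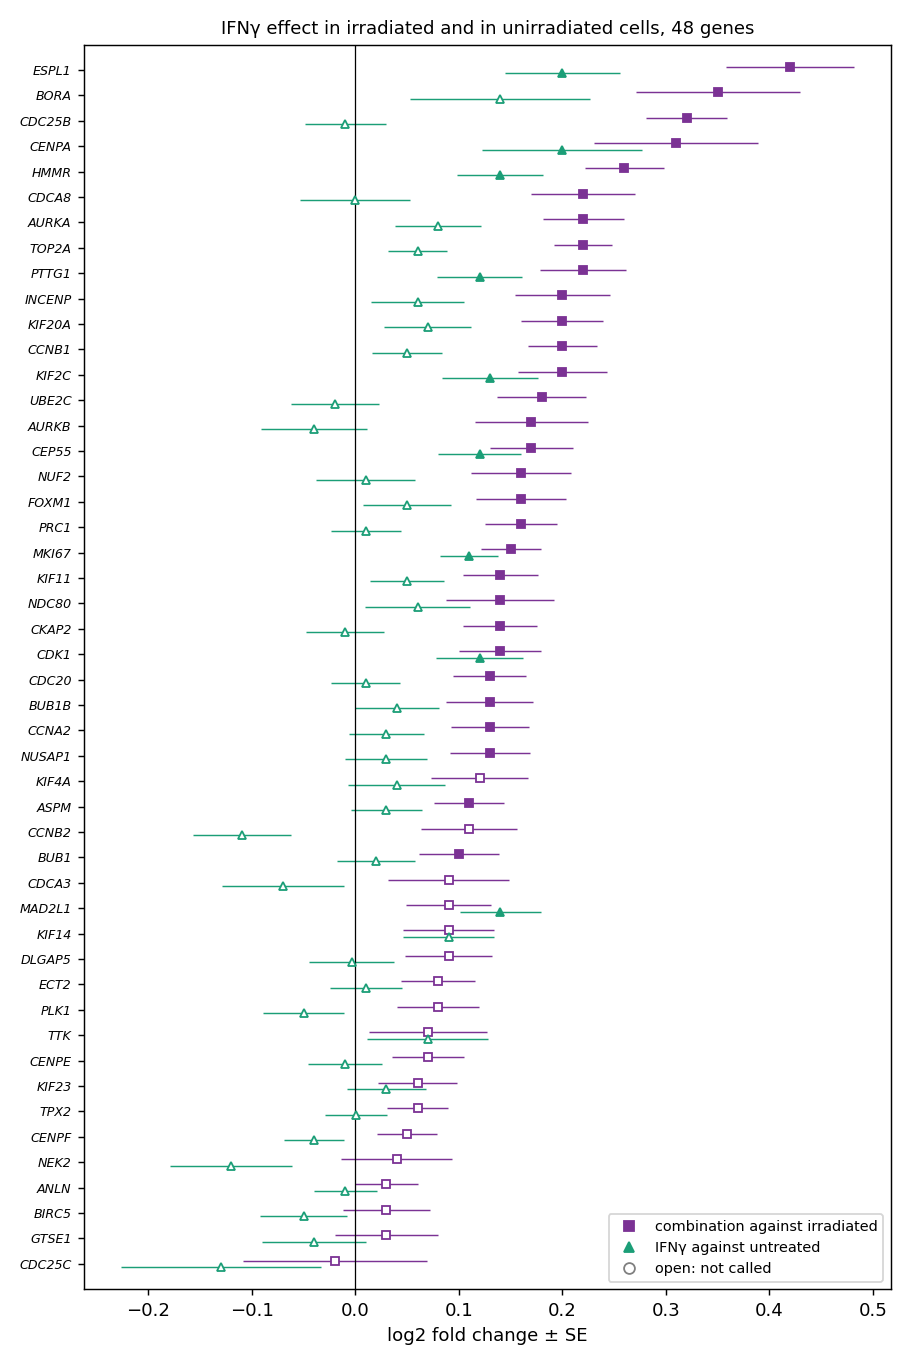
Log2 fold change with SE for each of the 48 genes, for the combination against radiation alone (squares) and IFNγ alone against untreated cells (triangles), ordered by the first, with filled symbols called at an adjusted p under 0.05 (n = 3 libraries per group). The squares lie right of 0 for 47 genes, up to 0.42 for ESPL1, and most triangles lie nearer to 0, between -0.13 and 0.20.

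Whether IFNγ acted differently in irradiated and unirradiated cells was tested as an interaction, the difference on the log2 scale between the combination and radiation alone, less that between IFNγ alone and no treatment. Of the 48 genes 2 were called, both positive, against 1.38% of all tested genes positive and 0.995% negative. The count called negative was 0, also at an unadjusted p under 0.05 and in the DESeq2 test. CDC25B, the phosphatase that activates CDK1 at the centrosome, was at 191, 186 and 189 CPM in the combination, 146, 152 and 155 CPM in irradiated, 166, 159 and 149 CPM in IFNγ-treated and 160.1, 159 and 158 CPM in untreated libraries. The combination lay above all libraries of the other 3 groups, with an interaction of 0.33 ± 0.0551 (adjusted p = 9.31e-05). TOP2A was at 1021, 994 and 1013 CPM in the combination, 858, 851 and 891 CPM in irradiated, 701, 716 and 711 CPM in IFNγ-treated and 661, 692 and 681 CPM in untreated libraries. Each of the 4 groups was separate, and the interaction was 0.16 ± 0.0396 (adjusted p = 0.0195), a call that ended without irradiated replicate 1 (0.15, adjusted p = 0.0655) or 2 (0.14, adjusted p = 0.088). The interaction term was positive for 47 of the 48, against 49.6% of all tested genes, with a median of 0.10, against -0.00145, and 19 of the 48 passed an unadjusted p under 0.05, all positive. These counts are a description, since the genes are not independent. The term also contains the difference between the combination and radiation alone given above. For the other 46 genes the difference between the 2 IFNγ effects was not called, although leaving out 1 library gave a call for CDCA8 (0.27, without IFNγ 2), CCNB1 (0.18, without combination 3), CKAP2 (0.18, without untreated 1), CCNB2 (0.25 and 0.28, without IFNγ 2 or irradiated 3), AURKB (0.26, without untreated 2) or UBE2C (0.25, without irradiated 3), and MAD2L1 was the 1 gene with a negative term (-0.05).

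Genes that work beside the 48 in mitosis were listed by function, with earlier results of these data known. Their calls after radiation alone stand beside 28.2% of all tested genes lower and 27.9% higher. All 18 genes of condensin and cohesion, the rings that compact chromosomes and hold sisters together, were called lower against untreated cells, with a median of -0.347, led by STAG1 (-1.11) and SMC3 (-0.83), both of cohesin. The count called higher was 0, also at an unadjusted p under 0.05 and in the DESeq2 test. Of 31 other kinetochore and checkpoint genes, 18 fell and 2 rose (median -0.242), from DSN1 (-0.85) and CENPQ (-0.65) to MAD1L1 (0.21) and CENPI (0.33). Of 27 spindle pole and centrosome genes, 14 fell and 3 rose (median -0.104), from KIF15 (-0.93) and HAUS1 (-0.70) to CKAP5 (0.22) and KIF18A (0.39). Of 18 APC/C genes, 8 fell and 1 rose (median -0.125), with FBXO5, an APC/C inhibitor, at -0.57, the conjugating enzyme UBE2S at -0.39 and ANAPC16 at 0.19. Of 14 cytokinesis partners, 5 fell and 2 rose (median -0.017), from ARHGAP11A (-0.28) and VPS4A (-0.25) to KIF20B and CHMP4B (0.21 each).

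Of 13 genes that brake or release the G2 checkpoint, 7 rose and 5 fell after radiation alone. CDKN1A rose by 2.45 ± 0.0373, PPM1D, the phosphatase that ends the DNA damage response, by 1.54, and GADD45A, a p53 target, by 0.43. WEE1 (-0.67) and PKMYT1 (-0.69), the kinases that inhibit CDK1, and the phosphatase CDC25A (-0.71) fell. Of 15 DREAM and B-MYB genes, 8 fell and 3 rose. MYBL2, which encodes B-MYB, averaged 42.1 CPM in the combination, 40 in irradiated, 96.8 in IFNγ-treated and 93.2 CPM in untreated libraries, and fell by 1.22 after radiation alone. The DREAM subunit E2F4 fell by 0.36 and LIN52 by 0.46, and RB1 (0.33) and MYBL1 (0.48) rose.

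For the combination compared with untreated cells, the list counts stand beside 30.9% of all tested genes higher and 31.2% lower. Here 16 of the 18 condensin and cohesion genes fell (STAG1 -1.13, SMC3 -0.69), as did 14 of 31 kinetochore genes (DSN1 -0.75, SPC25 -0.61), while 5 of those 31 rose (CENPP 0.31, CENPI 0.28). Spindle pole genes gave 6 higher and 14 lower of 27, from KIF15 (-0.75) and HAUS2 (-0.71) to STIL (0.30) and KIF18A (0.50). APC/C genes gave 3 higher and 9 lower of 18, from MAD2L2 (-0.65) and FBXO5 (-0.47) to FZR1 (0.29) and CDC26 (0.46). Cytokinesis partners gave 5 higher and 4 lower of 14, near the shares of all tested genes, from ARHGAP11A (-0.29) and VPS4A (-0.27) to CHMP4B (0.19) and KIF20B (0.30). CDKN1A (2.40), PPM1D (1.5) and GADD45A (0.44) stayed higher and WEE1 (-0.62), CDC25A (-0.67), E2F4 (-0.16), MYBL2 (-1.15) and LIN52 (-0.48) lower than in untreated cells, with RB1 at 0.48 and MYBL1 at 0.28. Against radiation alone, where 14.5% of all tested genes were higher and 12.4% lower, the combination had 8 of 31 kinetochore, 8 of 18 condensin and cohesion, 7 of 27 spindle pole and 2 of 14 cytokinesis genes higher. The count lower was 0 in these 4 lists, also in the DESeq2 test, and 1 cytokinesis gene was lower at an unadjusted p under 0.05. APC/C genes gave 2 higher and 3 lower of 18, DREAM and B-MYB genes 5 higher and 2 lower of 15, and G2 checkpoint genes 1 lower of 13. CDKN1A (-0.06), WEE1 (0.04) and MYBL2 (0.08) were not called between these groups.

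**Figure D5:**
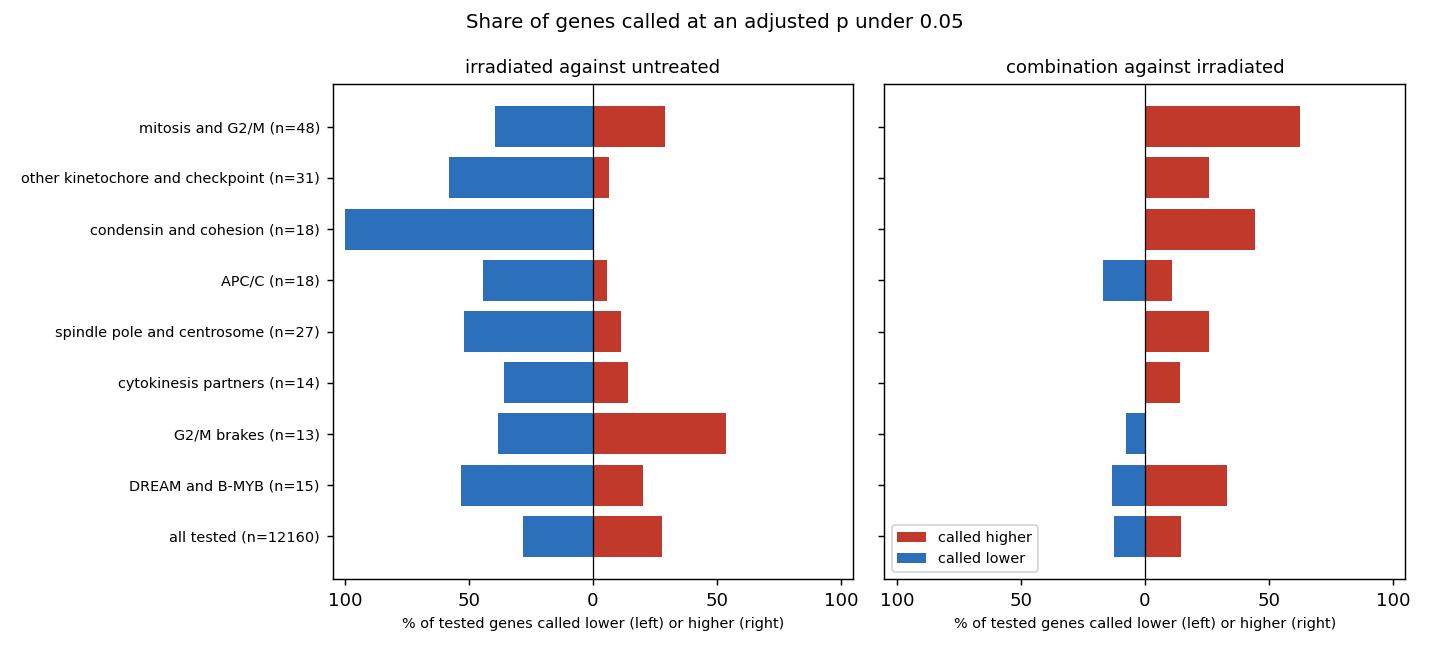
Share of tested genes called lower (bars to the left) and higher (bars to the right) at an adjusted p under 0.05, for irradiated against untreated cells (left panel) and for the combination against radiation alone (right panel), for the 48 genes, the 7 related lists and all 12160 tested genes. In the left panel 39.6% of the 48 are lower and 29.2% higher, against 28.2% and 27.9% of all tested genes. In the right panel 62.5% of the 48 are higher, against 14.5% of all tested genes.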

How the data were processed

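The authors deposited raw whole-number counts per gene in 1 table, not normalized. The submitters' processing notes name the build hg19 (GRCh37) and the tools TopHat2 2.0.13, Cuffdiff 2.2.1, Cufflinks and FastQC 0.11.3. Per the labels' protocols, ribosomal RNA was removed and stranded total RNA libraries were sequenced paired-end, but the series' design text names an mRNA protocol, so which was used is unsettled. Which tool counted the reads, and with what strand setting, is not given in the sources used here.

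Columns were matched to libraries by title. Counts were fitted with edgeR 4.0.16 in R 4.3.3 (filterByExpr, TMM scaling, robust quasi-likelihood fit of all 12 libraries). The fit ran on 12160 genes, with Benjamini-Hochberg adjustment over all of them and calls at an adjusted p under 0.05, and was tested on simulated data. The common biological coefficient of variation was 2.71%. SEs were approximated from each log2 fold change and its F statistic, as the size of the change over the root of F. No library copied another: chi-square per degree of freedom of replicate pairs was 1.14 to 2.75. Alternatives were DESeq2 1.42.0 and its size factors, library totals, no filter, only the groups compared, a replicate block and leaving out each library. Exon lengths and overlaps came from GENCODE 29 (GRCh38), and 1 RefSeq promoter window was used per gene, the first listed.

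The members and lists were chosen with earlier results of these data known. Values by library are given for the called genes with the 6 largest rises and 6 largest falls without overlap in each pairwise comparison (ties included where named), and for MKI67, CCNB1, CDK1, CDC20, PLK1, AURKA and FOXM1. Related lists are shown by their 2 highest and 2 lowest called genes, plus CDKN1A, WEE1, GADD45A, E2F4 and MYBL2.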

Additional observations from a re-analysis of the deposited data

Results flagged for a closer look

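A difference in the effect of IFNγ between irradiated and unirradiated cells was called for 2 of the 48 genes, by the interaction term of the edgeR quasi-likelihood fit. Both were positive, against 1.38% of all tested genes called positive and 0.995% negative. The term was positive for 47 of the 48, and 19 passed an unadjusted p under 0.05, given as a description since the genes are not independent. For CDC25B the interaction was 0.33 on the log2 scale (SE 0.0551, adjusted p = 9.31e-05), with an IFNγ effect of 0.32 in irradiated cells and -0.01 in unirradiated cells. All 3 combination libraries were above all 3 irradiated ones, and the IFNγ-treated and untreated libraries overlapped. For TOP2A the interaction was 0.16 (SE 0.0396, adjusted p = 0.0195), with an IFNγ effect of 0.22 in irradiated cells and 0.06 in unirradiated cells. TOP2A was not called when irradiated replicate 1 (adjusted p = 0.0655) or irradiated replicate 2 (adjusted p = 0.088) was left out.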

How the results depend on the processing

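The counts of called genes among the 48 stayed within 1.5 times their main value under every alternative for radiation against untreated, the combination against untreated, the combination against IFNγ and the combination against radiation, and 0 directions of called genes reversed. For IFNγ against untreated, 9 genes were called higher, 1 with library totals, 4 in the DESeq2 test and 3 to 9 when 1 library was left out; 0 were called lower, but 5 with library totals, a scaling that moved the median of all tested genes by -0.0628 in place of -0.00521. For the interaction, 2 genes were called positive, 6 with library totals and 1 to 4 when 1 library was left out: 1 without irradiated replicate 1 or 2, and 4 without irradiated replicate 3 or IFNγ replicate 2. Leaving out 1 library gave 11 to 14 higher and 17 to 19 lower after radiation alone, 19 to 23 and 6 to 10 for the combination against untreated, and 24 to 33 higher for the combination against radiation. Calls that held under every alternative numbered 27 of 33 for radiation, 1 of 9 for IFNγ (ESPL1), 23 of 31 and 27 of 30 for the combination against untreated and against IFNγ, 20 of 30 for the combination against radiation and 1 of 2 interactions (CDC25B). The cause of these shifts was not tested. Libraries with the same replicate number did not deviate together (18 pairs, r -0.0711 to 0.0537, against up to 0.0946 between different numbers, so not every library correlated best with its own number); a replicate block gave 9 in place of 8 genes lower for the combination against untreated and left the other counts equal. With 3 libraries a group and SEs of about 0.03 to 0.13, small differences in low genes such as CDC25C and BORA are measured least well.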
